A study of Mus musculus with 18 samples.

Results

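The genes described here are 9 secreted or lipid-linked factors of adipose tissue: the paraoxonases Pon1, Pon2 and Pon3, the apolipoproteins Apoe, Apoc1 and Apod, and the angiopoietin-like genes Angptl2, Angptl4 and Angptl7. They were taken by symbol, and all 9 were found among the 24338 symbols listed in all 18 tables. The set was drawn up because Pon1 and Angptl7 in tissue, and Apoe in cultures at day 0, were among the largest increases in NFIA-Tg libraries, so the members were chosen by their measured log2 changes in those 2 contrasts. There the 9 are described without p-values, while genes outside the set are tested. The samples were inguinal white adipose tissue (iWAT) of NFIA-Tg and WT mice, and adipocyte cultures derived from the inguinal stromal vascular fraction (ingSVF) of NFIA-Tg and WT genotype, taken at day 7 and at day 0, with 3 libraries in each of the 6 groups. NFIA belongs to the nuclear factor I transcription factors, and NFIA-Tg denotes a transgene for it. The transgene's promoter and the strain, sex and age of the mice are not stated in the labels used here. Day 7 cultures of both genotypes were induced at confluence for 48 h. The cocktail held 0.5 mM isobutylmethylxanthine, 125 nM indomethacin, 1 µM dexamethasone, 850 nM insulin, 1 nM T3 and 1 µM rosiglitazone. They were then kept in insulin, T3 and rosiglitazone, and therefore carry a PPARγ agonist. No cocktail is listed for the day 0 libraries, so each difference between day 7 and day 0 is also a difference in this treatment.

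Paraoxonases hydrolyse lactones and oxidised lipids. Pon1 and Pon3 proteins travel on high-density lipoprotein and are known mainly as liver products, whereas Pon2 is an intracellular enzyme of many tissues. Apoe and Apoc1 are neighbouring genes for lipoprotein proteins that adipocytes and macrophages make, and Apod encodes a lipocalin that carries small hydrophobic ligands. Angptl4 inhibits lipoprotein lipase and is a classical target of the PPAR nuclear receptors in fat. Angptl2 is an adipose-derived factor linked to inflammation, and Angptl7 is best known from the eye.

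Levels are FPKM (fragments per kilobase, scaled to library size), given per library in the order of replicates 1 to 3. Values after ± are SD over 3 libraries unless called SE. Differences are on the log2(FPKM + 1) scale, which understates changes of low genes. The tissue tables and the culture tables were made in different ways, so tests were run within each kind, and levels set across them are only side by side. In tissue the listed length is close to the genomic span, and the length behind FPKM is unknown. Ratios between genes are therefore not compared between tissue and cultures. The 12 culture libraries held 16772594 to 28625625 reads recovered from the tables, whereas the depth of the tissue libraries is unknown. The labels do not say that replicates came from separate mice or cultures, so p-values measure the spread between these libraries. Nfia itself averaged 141 ± 36.0 FPKM in NFIA-Tg iWAT and 3.96 ± 0.228 in WT iWAT. In the cultures it averaged 11.9 ± 0.584 FPKM in NFIA-Tg and 6.41 ± 0.104 in WT at day 0. At day 7 it went against the label, with 6.99 ± 0.475 FPKM in the libraries labelled NFIA-Tg and 12.5 ± 0.518 in WT libraries, so every genotype difference at day 7, and every difference that uses those libraries, refers to libraries by their label. Adiponectin (Adipoq), the defining adipocyte marker, averaged 2115 ± 139 FPKM in NFIA-Tg iWAT and 2903 ± 37.6 in WT iWAT. It averaged 258 ± 17.9 FPKM in day 7 libraries labelled NFIA-Tg and 1295 ± 26.8 in WT day 7 libraries, and was at most 0.312 FPKM in any day 0 library. Of 15 mature adipocyte markers tested in iWAT, limma called 2 higher with the transgene and 0 lower, where 5.96% and 5.44% of all genes were. Plin1 was among the 2, with 1297 ± 118 FPKM in NFIA-Tg and 921 ± 24.0 in WT. Adipoq did not pass (limma, adjusted p = 0.0760).

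In tissue, Pon1 and Angptl7 were high in NFIA-Tg and close to absent in WT, and Pon3 and Apoc1 were higher in NFIA-Tg by 1.83 and 1.72 times their WT means. Angptl2 stood at 0.508 of its WT mean. Apoe, Apod and Angptl4 had overlapping groups. All 9 genes passed the filter on low values, and limma called 4 of them higher and 1 lower in NFIA-Tg tissue at an adjusted p under 0.05, where 5.96% of 12396 genes were called higher and 5.44% lower. The groups did not overlap for 6 of the 9, where 34.4% of all genes did not overlap. Because this contrast chose 2 of the genes, nothing is read from either count. The median difference of the 9 was 0.02, and that of all genes 0.05.

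**Figure D1:**
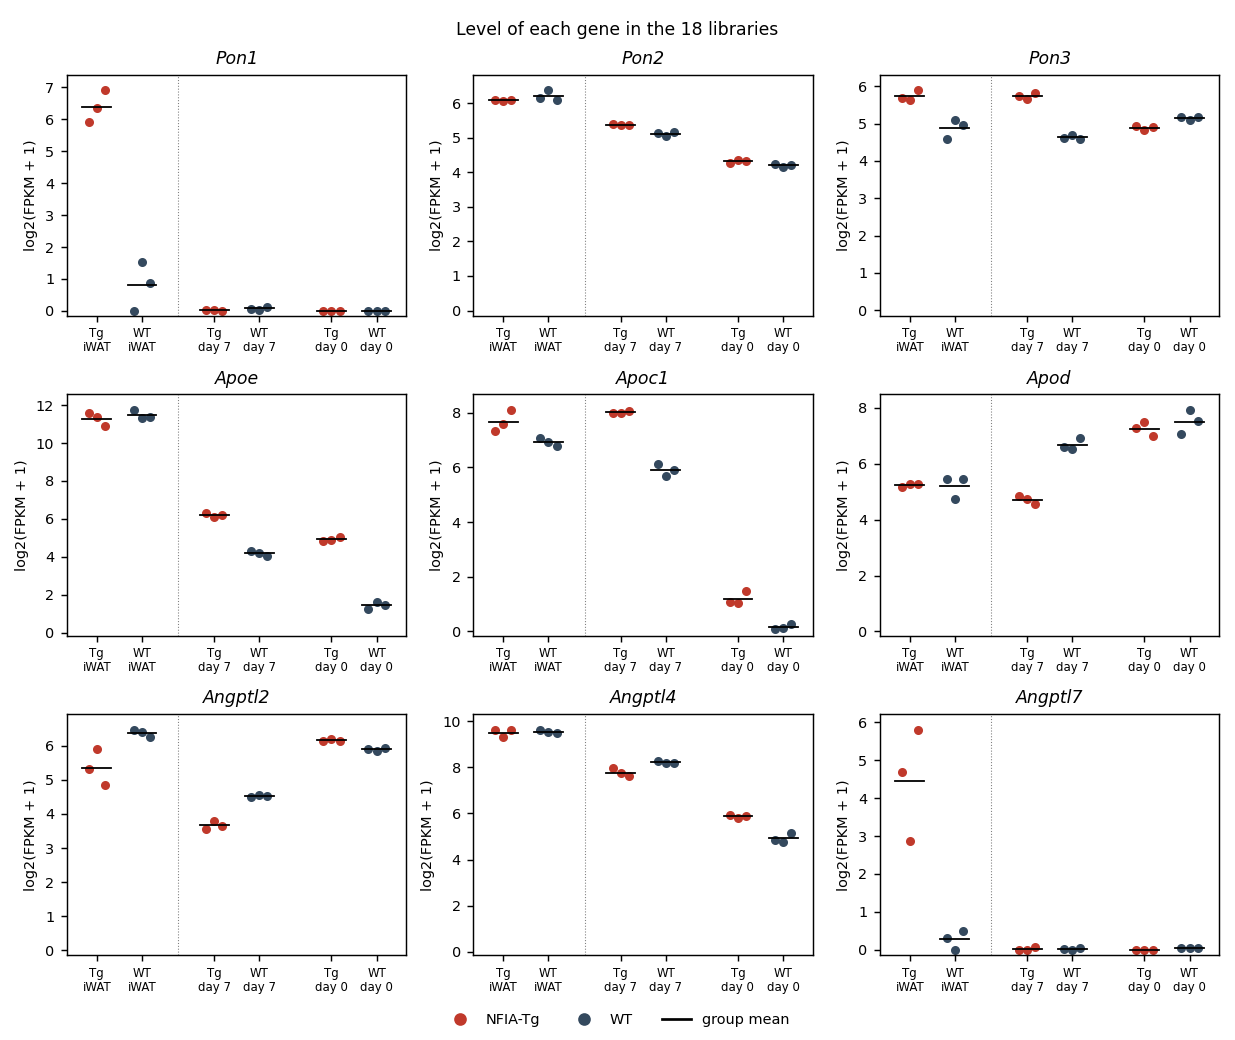
Level of each gene on the log2(FPKM + 1) scale (y axis) in each of the 18 libraries (points), by group (x axis, Tg for NFIA-Tg), with the group mean as a line and tissue and culture tables parted by a dotted line. Pon1 and Angptl7 are high only in the 3 NFIA-Tg iWAT libraries, and Apoe and Apoc1 stand higher in libraries labelled NFIA-Tg than in WT libraries at both culture times.

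Pon1 had 59.0, 81.1 and 119.6 FPKM in NFIA-Tg iWAT, and 0, 1.92 and 0.834 FPKM in WT iWAT. The lowest NFIA-Tg library lay far above the highest WT library, and the mean of 86.6 ± 30.7 FPKM was 94.4 times the WT mean of 0.917 ± 0.961. The difference of 5.59 ± 0.38 (SE) was the largest increase among the 12396 genes tested, which is how the gene entered the set. In the cultures, Pon1 had 1, 1 and 0 reads in day 7 libraries labelled NFIA-Tg and 2, 1 and 3 reads in WT day 7 libraries. No Pon1 read was found in any of the 6 day 0 libraries, where 3 reads, the limit that a count of 0 allows, would have been 0.0693 to 0.0952 FPKM. No culture library held more than 3 Pon1 reads, and no fold between genotypes is given.

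Pon2, the intracellular member, had 67.1, 65.6 and 66.7 FPKM in NFIA-Tg iWAT and 69.7, 82.2 and 67.1 FPKM in WT iWAT. The highest NFIA-Tg value lay just under the lowest WT value, and the difference was -0.13 ± 0.10 (SE). In cultures it had 41.2, 39.9 and 40.1 FPKM in day 7 libraries labelled NFIA-Tg and 34.3, 31.9 and 34.9 FPKM in WT day 7 libraries. The groups did not overlap, and Pon2 was higher in the libraries labelled NFIA-Tg by 0.25 ± 0.04 (SE; limma, adjusted p = 0.000101), a ratio of means of 1.20. On day 0 it had 18.4, 19.4 and 19.1 FPKM in NFIA-Tg and 17.9, 16.7 and 17.5 FPKM in WT libraries.

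Pon3 rose in culture in libraries labelled NFIA-Tg and fell in WT libraries, while Pon2 rose in both. In tissue Pon3 had 51.0, 48.8 and 58.9 FPKM in NFIA-Tg iWAT and 23.0, 33.1 and 30.4 FPKM in WT iWAT. These groups did not overlap, with a difference of 0.86 ± 0.15 (SE). At day 7 it had 52.6, 50.0 and 55.8 FPKM in libraries labelled NFIA-Tg and 23.5, 24.8 and 23.2 FPKM in WT libraries. Every library labelled NFIA-Tg was above every WT library, and Pon3 was higher by 1.11 ± 0.05 (SE; limma, adjusted p = 4.81e-10), or 2.21 times the WT mean. At day 0 the order was the other way, with 29.6, 27.3 and 29.2 FPKM in NFIA-Tg and 35.4, 33.3 and 35.6 FPKM in WT libraries. From day 0 to day 7 it rose by 0.86 ± 0.05 (SE) in libraries labelled NFIA-Tg (limma, adjusted p = 2.26e-09) and fell by 0.52 on the log2 scale in WT libraries (SE 0.05, adjusted p = 4.95e-07). The 2 courses differed by 1.38 ± 0.07 (SE; limma, adjusted p = 3.39e-09).

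The paraoxonases lie side by side on chromosome 6 of GRCm38, all on the minus strand, with Pon1 at chr6:5168090-5193946, Pon3 at chr6:5220852-5256286 and Pon2 at chr6:5264147-5298455 (GENCODE M21). Pon1 is 26905 bases from Pon3, and Pon3 is 7860 bases from Pon2. Within a library, Pon3 stood at 0.744 to 0.884 of the Pon2 level in NFIA-Tg iWAT and at 0.330 to 0.453 in WT iWAT. At day 7 the ratio was 1.26 to 1.39 in libraries labelled NFIA-Tg and 0.666 to 0.777 in WT libraries, and at day 0 it was 1.41 to 1.60 in NFIA-Tg and 1.98 to 2.04 in WT libraries. The ratio did not overlap between genotypes in any of these settings, as the plot of ratios within libraries shows. The promoters of these genes are shown because NFIA is the transgene and its family binds the letters TTGGC. The windows run from 250 bases before to 50 after the annotated start in RefSeq (GRCm38.p6, minus strand), at chr6:5193897-5194196 for Pon1, chr6:5298291-5298590 for Pon2 and chr6:5256184-5256483 for Pon3, and capitals mark TTGGC.
Pon1: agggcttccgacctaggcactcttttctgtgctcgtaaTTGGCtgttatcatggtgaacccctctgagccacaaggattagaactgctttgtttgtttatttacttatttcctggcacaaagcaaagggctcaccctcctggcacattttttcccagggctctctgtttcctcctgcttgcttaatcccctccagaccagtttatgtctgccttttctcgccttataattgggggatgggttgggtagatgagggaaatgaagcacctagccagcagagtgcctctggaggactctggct
Pon2: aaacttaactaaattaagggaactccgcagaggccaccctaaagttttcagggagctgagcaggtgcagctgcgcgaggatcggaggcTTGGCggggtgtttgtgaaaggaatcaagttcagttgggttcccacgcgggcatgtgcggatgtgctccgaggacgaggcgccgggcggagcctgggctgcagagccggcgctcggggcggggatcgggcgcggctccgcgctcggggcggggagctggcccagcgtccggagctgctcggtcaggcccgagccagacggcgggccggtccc
Pon3: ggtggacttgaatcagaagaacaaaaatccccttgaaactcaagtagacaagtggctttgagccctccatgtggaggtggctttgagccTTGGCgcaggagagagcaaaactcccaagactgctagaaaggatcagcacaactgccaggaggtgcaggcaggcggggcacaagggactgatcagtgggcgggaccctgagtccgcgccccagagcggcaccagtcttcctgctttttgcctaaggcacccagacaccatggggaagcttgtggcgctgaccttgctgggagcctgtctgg
Each of the 3 windows holds 1 match, whose first base is at -212 in Pon1, -162 in Pon2 and -161 in Pon3. On either strand, TTGGC or its reverse GCCAA occurs in 46.7% of the 32851 windows of this length in the RefSeq table. Of the 7 genes that have a window there, 5 hold it in at least 1 of their windows, counting Apoe with 3 windows. The nuclear receptor letters AGGTCA, or TGACCT on the other strand, occur in 16.3% of all windows, and among the 7 genes only in that of Pon3. A match describes letters in the window and is not a binding site.

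**Figure D2:**
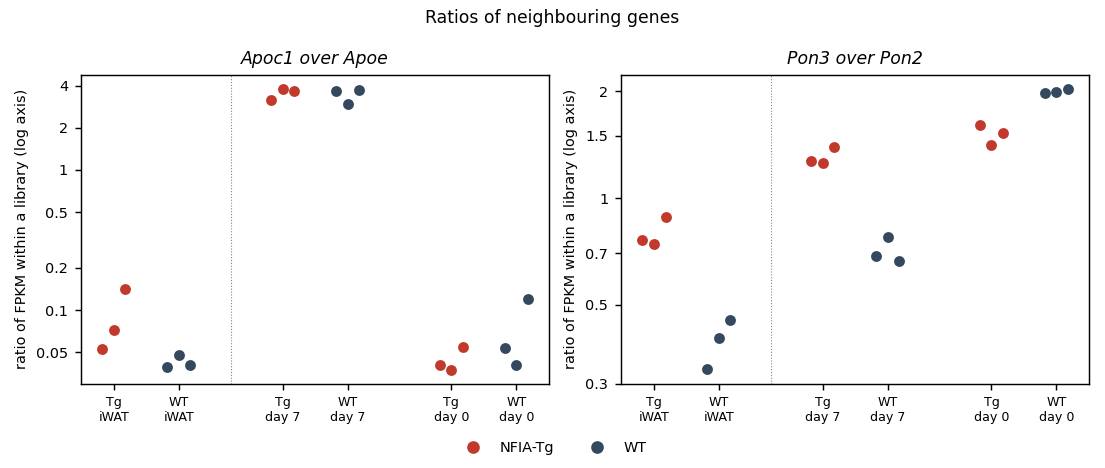
Ratio of FPKM of 2 genes within each library (points, log y axis) by group (x axis, Tg for NFIA-Tg), Apoc1 over Apoe on the left and Pon3 over Pon2 on the right. Pon3 over Pon2 is 1.26 to 1.39 in day 7 libraries labelled NFIA-Tg against 0.666 to 0.777 in WT, while Apoc1 over Apoe overlaps between genotypes at day 7. The length behind tissue FPKM is unknown, so ratios are not compared between tissue and cultures.

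Apoe was the most abundant of the 9 in tissue, where the genotypes overlapped, and its genotypes were apart at both culture times. It had 3062, 2638 and 1943 FPKM in NFIA-Tg iWAT and 3438, 2572 and 2678 FPKM in WT iWAT, with overlapping groups and a difference of -0.20 ± 0.21 (SE). At day 0 it had 27.6, 28.3 and 32.4 FPKM in NFIA-Tg and 1.38, 2.04 and 1.80 FPKM in WT libraries. Those values, 16.9 times the WT mean and a difference of 3.48 ± 0.10 (SE), ranked 2 among 12553 genes and chose the gene. At day 7, in libraries that took no part in that choice, it had 79.8, 67.1 and 72.4 FPKM in those labelled NFIA-Tg and 18.6, 17.1 and 15.7 FPKM in WT. The groups were far apart, and Apoe was higher by 2.03 ± 0.10 (SE; limma, adjusted p = 9.18e-10), or 4.27 times the WT mean. From day 0 to day 7 the difference was 1.28 ± 0.10 (SE) in libraries labelled NFIA-Tg and 2.73 ± 0.10 (SE) in WT libraries, given without a test because the day 0 libraries chose the gene. In the order of culture levels, day 7 libraries labelled NFIA-Tg stood highest, followed by NFIA-Tg day 0, WT day 7 and WT day 0, with no overlap between neighbours.

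Apoc1 lies next to Apoe on the minus strand of chromosome 7 (GRCm38), at chr7:19689481-19692660 against chr7:19696109-19699188, 3448 bases apart. It had 161, 189.9 and 275 FPKM in NFIA-Tg iWAT and 134, 122 and 108 FPKM in WT iWAT, so that all 3 NFIA-Tg libraries were above all WT libraries, with a difference of 0.74 ± 0.19 (SE). At day 7 it had 252, 256 and 265 FPKM in libraries labelled NFIA-Tg and 68.1, 50.4 and 58.4 FPKM in WT libraries. It was higher by 2.12 ± 0.12 (SE; limma, adjusted p = 3.28e-09), or 4.37 times the WT mean, close in size to the ratio of 4.27 for Apoe. At day 0 it was low in both genotypes, with 13, 16 and 28 reads in NFIA-Tg libraries and 1, 1 and 3 reads in WT libraries. Scaled to library totals, the 57 reads in NFIA-Tg were 10.6 times the 5 in WT, with an exact conditional 95% interval for counting error of 4.27 to 33.8.

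The rise of Apoc1 over differentiation was the largest of the set in both genotypes. It rose by 6.81 ± 0.12 (SE) in libraries labelled NFIA-Tg (limma, adjusted p = 1.95e-14) and by 5.73 ± 0.12 (SE) in WT libraries (limma, adjusted p = 1.83e-13). Scaled to library totals, the reads at day 7 were 191 times those at day 0 in libraries labelled NFIA-Tg (counting interval 147 to 252) and 468 times in WT libraries (counting interval 200 to 1441). The 2 courses differed by 1.08 ± 0.16 (SE; limma, adjusted p = 6.78e-05), but the sign turned with the scale, to -0.55 (adjusted p = 0.140) with a pseudocount of 0.1 and to -1.002 (adjusted p = 0.226) with limma-voom on recovered reads. Which genotype had the larger relative rise is therefore not set by these data. Within a library, Apoc1 stood at 3.16 to 3.81 times Apoe in day 7 libraries labelled NFIA-Tg and at 2.95 to 3.73 times Apoe in WT day 7 libraries, which overlap. At day 0 it was 0.0376 to 0.0545 of Apoe in NFIA-Tg and 0.0403 to 0.121 in WT libraries, the WT values resting on the few reads above. In tissue the ratio was 0.0527 to 0.142 in NFIA-Tg and 0.0390 to 0.0476 in WT, where Apoc1 and not Apoe differed.

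The first annotated Apoe window in RefSeq (GRCm38.p6, chr7:19699139-19699438, minus strand) and that of Angptl7 (chr4:148500413-148500712, minus strand) are printed because these genes, with Pon1, were the ones chosen for their increase, and capitals again mark TTGGC.
Apoe: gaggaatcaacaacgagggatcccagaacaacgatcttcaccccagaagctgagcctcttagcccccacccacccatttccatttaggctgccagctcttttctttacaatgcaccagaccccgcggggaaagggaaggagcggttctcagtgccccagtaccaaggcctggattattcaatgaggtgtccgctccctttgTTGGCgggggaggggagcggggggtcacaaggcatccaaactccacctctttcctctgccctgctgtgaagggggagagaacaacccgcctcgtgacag
Angptl7: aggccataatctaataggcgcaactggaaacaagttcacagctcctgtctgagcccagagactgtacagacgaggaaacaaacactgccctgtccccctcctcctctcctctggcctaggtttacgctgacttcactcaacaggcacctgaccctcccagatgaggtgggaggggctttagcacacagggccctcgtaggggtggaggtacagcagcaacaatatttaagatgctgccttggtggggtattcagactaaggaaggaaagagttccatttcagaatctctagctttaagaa
The Apoe window holds 1 match, with its first base at -49, and another of the 3 Apoe windows holds 1 at -57. The Angptl7 window, like that of Apod, holds none. Apoc1 and Angptl4 have no entry in the table.

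Apod, the lipocalin, went the other way from Apoe in the cultures. It had 27.6, 25.7 and 22.6 FPKM in day 7 libraries labelled NFIA-Tg and 97.3, 90.4 and 120.1 FPKM in WT day 7 libraries. All 3 libraries labelled NFIA-Tg were under all WT libraries, and Apod was lower by a difference of -1.97 ± 0.19 (SE; limma, adjusted p = 7.73e-07), at 0.247 of the WT mean. The day 0 levels were 155, 179 and 127 FPKM in NFIA-Tg and 132, 243 and 186 FPKM in WT libraries, which overlap. From day 0 to day 7 it fell by 2.55 on the log2 scale in libraries labelled NFIA-Tg (SE 0.19; limma, adjusted p = 3.50e-08) and by 0.83 in WT libraries (SE 0.19; limma, adjusted p = 0.00139). The 2 falls differed by -1.72 ± 0.27 (SE; limma, adjusted p = 9.20e-05). In tissue it had 34.9, 38.2 and 37.8 FPKM in NFIA-Tg and 43.4, 26.0 and 42.5 FPKM in WT libraries, with a difference of 0.02 ± 0.19 (SE).

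Angptl2 was lower with the label NFIA-Tg in tissue and at day 7, and higher at day 0. In iWAT it had 38.9, 59.5 and 27.7 FPKM in NFIA-Tg and 88.0, 83.9 and 76.3 FPKM in WT libraries, without overlap, although the NFIA-Tg libraries spread by more than their lowest value. The tissue difference was -1.02 ± 0.24 (SE). At day 7 it had 10.9, 12.7 and 11.5 FPKM in libraries labelled NFIA-Tg and 21.4, 22.4 and 21.9 FPKM in WT libraries. It was lower in the libraries labelled NFIA-Tg, with a difference of -0.85 ± 0.05 (SE; limma, adjusted p = 6.80e-09) and 0.535 of the WT mean. The day 0 levels were 69.3, 72.7 and 69.9 FPKM in NFIA-Tg and 59.6, 56.7 and 59.6 FPKM in WT libraries. From day 0 to day 7 it fell by 2.50 on the log2 scale in libraries labelled NFIA-Tg (SE 0.05; limma, adjusted p = 8.16e-14) and by 1.38 in WT libraries (SE 0.05; limma, adjusted p = 4.22e-11). The falls differed by -1.12 ± 0.07 (SE; limma, adjusted p = 2.68e-08). Angptl2 lies inside Ralgps1 on the opposite strand, and which strand was counted is not stated in the labels used here. Ralgps1 averaged 3.28 ± 0.0641 FPKM in day 7 libraries labelled NFIA-Tg and 2.74 ± 0.156 FPKM in WT libraries (limma, adjusted p = 0.00441), the other direction from Angptl2.

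Angptl4, the lipoprotein lipase inhibitor, was abundant in tissue in both genotypes. It had 782, 630.1 and 773 FPKM in NFIA-Tg iWAT and 790.2, 728 and 718 FPKM in WT iWAT, overlapping, with a difference of -0.04 ± 0.13 (SE). At day 7 it had 246, 211 and 194 FPKM in libraries labelled NFIA-Tg and 312, 287 and 287 FPKM in WT libraries. The groups did not overlap, and Angptl4 was lower by a difference of -0.45 ± 0.10 (SE; limma, adjusted p = 0.00152), at 0.735 of the WT mean. The day 0 levels were 59.9, 54.6 and 58.4 FPKM in NFIA-Tg and 27.5, 25.9 and 34.9 FPKM in WT libraries. It rose with differentiation by 1.89 ± 0.10 (SE) in libraries labelled NFIA-Tg (limma, adjusted p = 1.40e-09) and by 3.29 ± 0.10 (SE) in WT libraries (limma, adjusted p = 1.09e-11). The rise was smaller in libraries labelled NFIA-Tg, by a difference of -1.40 ± 0.15 (SE; limma, adjusted p = 2.56e-06). In means, day 7 was 3.77 times day 0 in libraries labelled NFIA-Tg and 10.0 times day 0 in WT libraries.

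Angptl7 had 24.6, 6.37 and 55.2 FPKM in NFIA-Tg iWAT and 0.248, 0 and 0.407 FPKM in WT iWAT. Every NFIA-Tg library was above every WT library, but the NFIA-Tg libraries were spread widely, with an SD of 24.7 around a mean of 28.7. The difference of 4.19 ± 0.61 (SE) ranked 4 among 12396 genes, which chose the gene, and it was 6.31 ± 0.83 (SE) with a pseudocount of 0.1. Without any 1 of the NFIA-Tg libraries the gene no longer passed the filter on low values. In the cultures no library held more than 2 Angptl7 reads, under the limit that a count of 0 allows. The gene lies inside Mtor on the opposite strand (chr4:148495183-148500460, minus strand, GRCm38), and Mtor averaged 12.8 ± 1.08 FPKM in NFIA-Tg iWAT and 11.7 ± 1.25 FPKM in WT iWAT (limma, adjusted p = 0.552).

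**Figure D3:**
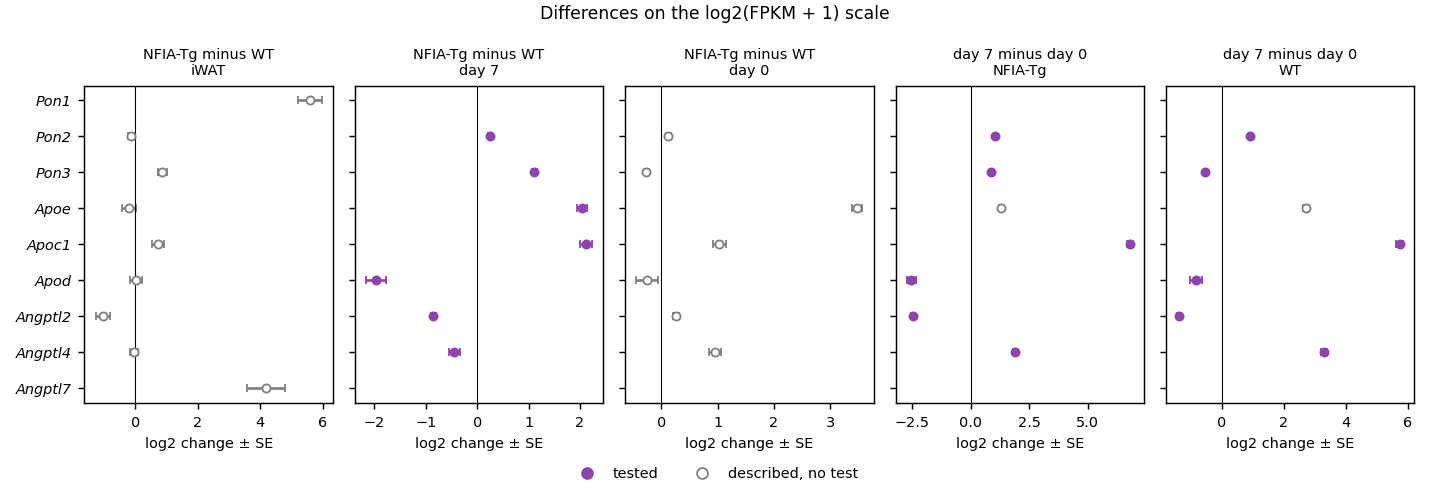
Difference of each gene on the log2(FPKM + 1) scale (x axis, with SE; the axes have different ranges) for genotype in iWAT, at day 7 and at day 0, and for day 7 minus day 0 in each genotype. Filled points were tested and open points are described only; Apod and Angptl2 lie left of 0 in all 3 tested panels, and Pon3 lies right of 0 in libraries labelled NFIA-Tg and left of 0 in WT.

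Over the set, 7 of the 9 genes passed the filter in the cultures, Pon1 and Angptl7 being the others. At day 7, 4 of the 7 were called higher (Pon2, Pon3, Apoe and Apoc1) and 3 lower (Apod, Angptl2 and Angptl4) in libraries labelled NFIA-Tg. In that comparison 29.8% of the 12553 genes tested were called higher and 51.1% lower, 80.9% in all, so being called there does not set the genes apart. All 7 had groups that did not overlap, as did 81.2% of all genes. The 6 genes other than Apoe were tested for differentiation. In libraries labelled NFIA-Tg 4 of them rose and 2 fell, where 45.7% of all genes rose and 41.5% fell. In WT libraries 3 rose and 3 fell, where 46.2% of all genes rose and 35.4% fell. The courses differed between genotypes for 5 of the 6, where 72.1% of all genes differed. Pon2 was the exception, with 0.13 ± 0.06 (SE; limma, adjusted p = 0.0599), and it passed under 3 of the alternatives tried. Among the 5, the sign for Apoc1 turned with a pseudocount of 0.1 and with limma-voom on recovered reads. At day 0, 5 of 7 were called higher and 1 lower, where 28.1% and 34.9% of all genes were, and nothing is read from this count because the contrast chose Apoe.

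Markers of other cell types moved with some of these results. Their counts stand against all genes tested. Of those, 5.96% were called higher and 5.44% lower in tissue. The shares were 29.8% higher and 51.1% lower at day 7, and 28.1% higher and 34.9% lower at day 0. In bulk RNA, fewer cells of a type and less RNA per cell cannot be told apart. Beside Apoe and Apoc1, the 20 macrophage markers summed to 1063 to 1289 FPKM in NFIA-Tg iWAT and 1188 to 1497 in WT iWAT, with 0 called higher and 4 lower of 19 tested. In day 7 cultures the marker sums were 15.2 to 16.6 FPKM in libraries labelled NFIA-Tg and 18.6 to 21.8 in WT libraries, and Adgre1, C1qa, C1qb, C1qc and Tyrobp were at 0 in all 6 libraries. Of the 6 markers tested there, 2 were lower (Mpeg1 and Gpnmb) and 2 were higher with Apoe and Apoc1, Cd68 with 6.98 ± 0.206 FPKM in libraries labelled NFIA-Tg and 2.66 ± 0.00488 in WT, and Trem2 with 2.22 ± 0.287 in libraries labelled NFIA-Tg and 0.850 ± 0.222 in WT. At day 0 the sums were 38.2 to 42.4 FPKM in NFIA-Tg and 44.6 to 55.4 in WT libraries, of which Gpnmb alone averaged 28.8 ± 3.88 FPKM in NFIA-Tg and 38.9 ± 4.52 in WT. Of 6 tested at day 0, 3 were higher (Trem2, Lyz2 and Cd68) and 2 lower. Trem2 averaged 0.682 ± 0.0449 FPKM in NFIA-Tg and 0.121 ± 0.0494 in WT day 0 libraries. The part of these cells in the higher Apoe and Apoc1 was not tested. At day 0, beside Apoe, Apoc1 and Angptl4, mature adipocyte markers summed to 554 to 607 FPKM in NFIA-Tg and 155 to 182 in WT libraries. Most of that sum was Lpl, with 533 ± 25.0 FPKM in NFIA-Tg and 144 ± 12.4 in WT. Adipoq, Plin1 and Cidec were low in both genotypes, averaging 0.250, 0.430 and 0.225 FPKM in NFIA-Tg. In WT day 0 libraries they averaged 0.150, 0.0498 and 0.182 FPKM. Of 14 adipocyte markers tested at day 0, 7 passed as higher and 1 as lower. At day 7 the adipocyte sums overlapped, but limma called 2 of 14 markers higher and 7 lower, Adipoq and Cidec among the lower, with Cidec at 759 ± 57.7 FPKM in libraries labelled NFIA-Tg and 1350 ± 45.8 in WT. The part of adipocyte content in these differences was not tested. Beside Apod and Angptl2, the 12 preadipocyte and fibroblast markers summed to 296 to 403 FPKM in day 7 libraries labelled NFIA-Tg and 1595 to 1786 in WT libraries, with 1 called higher and 9 lower of 11 tested. The part of these cells in the lower Apod and Angptl2 was not tested. In tissue, where Angptl2 was lower and Apod was not, that list summed to 1122 to 1488 FPKM in NFIA-Tg and 1232 to 1394 in WT, with 0 of 11 tested called by limma, while 2 had an unadjusted p under 0.05.

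**Figure D4:**
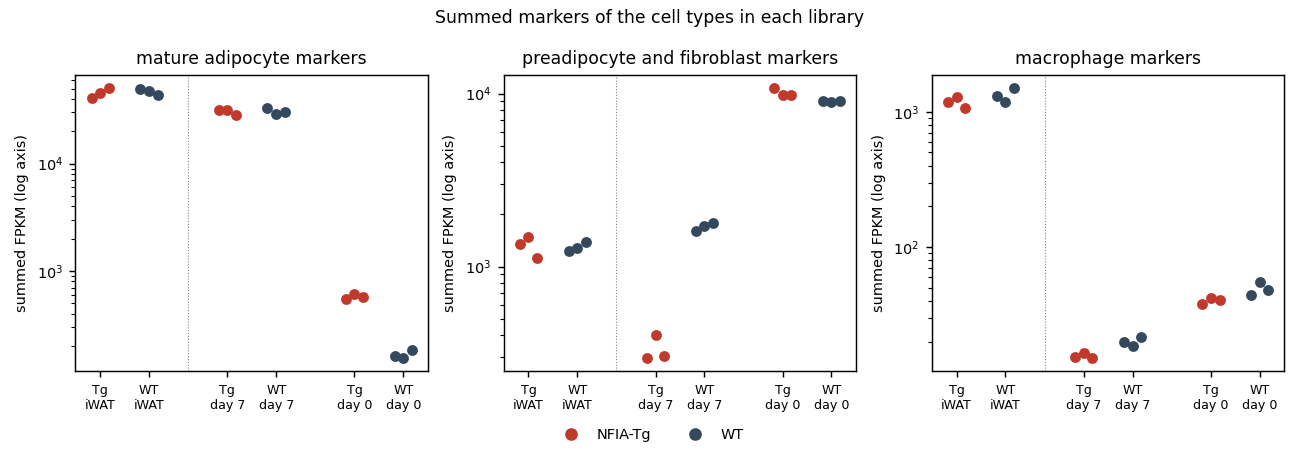
Summed FPKM (log y axis) of the markers of mature adipocytes, preadipocytes and fibroblasts, and macrophages in each library (points) by group (x axis, Tg for NFIA-Tg). Preadipocyte and fibroblast markers sum to 296 to 403 FPKM in day 7 libraries labelled NFIA-Tg against 1595 to 1786 in WT. Mature adipocyte sums overlap at day 7, at 28169 to 31755 in libraries labelled NFIA-Tg and 28950 to 33035 in WT. They stand apart at day 0, where most of the sum is Lpl.

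Over all 12396 genes tested in tissue, 5.96% were called higher and 5.44% lower. Beside Pon1, a gene known from liver, the hepatocyte list had 5 of its 12 markers tested in tissue, of which Cyp2e1 was called higher and Hpx lower. The list summed to 723 to 1308 FPKM in NFIA-Tg iWAT and 97.7 to 284 in WT iWAT, and Cyp2e1 alone averaged 891 ± 335 FPKM in NFIA-Tg and 170.3 ± 78.2 in WT. Albumin (Alb) overlapped, at 26.2 to 43.8 FPKM in NFIA-Tg and 5.99 to 46.1 in WT, Fga and Cps1 were listed at 0 in all 3 NFIA-Tg libraries, and Ttr was at most 0.327 FPKM there. Beside Angptl7, the tendon, ligament and perineurium list had 1 of 6 called higher, Scx with 9.08 ± 3.27 FPKM in NFIA-Tg and 1.09 ± 0.309 in WT, while Tnmd and Mkx were listed at 0 in all 6 tissue libraries. Its sums were 29.8 to 45.7 FPKM in NFIA-Tg iWAT and 23.1 to 26.2 in WT iWAT. The Schwann cell and nerve list had 1 of 9 tested called higher and 0 lower in tissue. Its sums were 255 to 291 FPKM in NFIA-Tg iWAT and 134 to 326 in WT iWAT. The skeletal muscle list had 0 of 4 tested called higher and 1 lower, with sums of 14.0 to 44.2 FPKM in NFIA-Tg iWAT and 128 to 186 in WT iWAT. The part of any of these cells in the higher Pon1 and Angptl7 was not tested.

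Over all 18 libraries, the genes whose log2 level followed Pon1 most closely among 10519 compared were Nxph1 (r = 0.973), Il17rb (r = 0.970) and Trpv1 (r = 0.958). For Angptl7 they were Nxph1 (r = 0.969), Pon1 itself (r = 0.952) and Mfap4 (r = 0.928). For Pon1 and Angptl7 these values rest on the 3 NFIA-Tg iWAT libraries that chose both genes: over the 12 cultures, where both are near 0, r between them was -0.118. Spearman's rho over all 18 was 0.379 between Pon1 and Angptl7. For Pon1 it was 0.520 with Nxph1, 0.753 with Il17rb and 0.837 with Trpv1. For Angptl7 it was 0.726 with Nxph1 and 0.649 with Mfap4. Nxph1 averaged 7.47 FPKM in NFIA-Tg iWAT and 0.0657 FPKM in WT iWAT, and was at 0 in every culture group. Apoe was followed by Atraid (r = 0.992), Smpd1 (r = 0.990) and Iscu (r = 0.988). Like Apoe, all of these were listed at higher FPKM in tissue than in cultures. The tissue and culture values were made in different ways, which can feed these r values too. These are Pearson correlations given as a description, over points that share a tissue or culture table, and tissue and culture levels differ for each of the 3 target genes.

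Related genes outside the 9 are given from lists of companions. Each list's day 7 count stands against all 12553 genes tested, of which 29.8% were called higher and 51.1% lower, 80.9% in all. A count near those shares does not set a list apart. Of 20 genes on the list of other apolipoproteins, which also holds the receptor Apobr, 11 were tested at day 7. Of these, 5 were higher and 3 lower in libraries labelled NFIA-Tg. Clu, which encodes the extracellular chaperone clusterin, averaged 5.77 ± 0.381 FPKM in libraries labelled NFIA-Tg and 2.86 ± 0.154 in WT (0.81 ± 0.08 SE; limma, adjusted p = 1.15e-06). Apol6 averaged 146 ± 9.08 FPKM in libraries labelled NFIA-Tg and 42.2 ± 2.94 in WT (limma, adjusted p = 1.68e-06). Apool, a mitochondrial member, was lower, with 16.4 ± 0.721 FPKM in libraries labelled NFIA-Tg and 25.4 ± 1.11 in WT (limma, adjusted p = 4.48e-05).

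Of 9 other genes of the angiopoietin-like and angiopoietin list, which also holds the receptors Tek and Tie1, 6 were tested at day 7. Of these, 1 was higher and 4 lower. The higher gene was Angptl6, at 81.4 ± 2.72 FPKM in libraries labelled NFIA-Tg and 7.00 ± 0.532 in WT, a difference of 3.37 ± 0.07 (SE; limma, adjusted p = 7.59e-13). Angptl8, which takes part in the control of lipoprotein lipase, was lower at day 7, with 12.5 ± 0.565 FPKM in libraries labelled NFIA-Tg and 33.2 ± 2.83 in WT (limma, adjusted p = 1.47e-09). In tissue Angptl8 was higher, with 32.1 ± 12.6 FPKM in NFIA-Tg and 10.2 ± 5.01 in WT (limma, adjusted p = 0.0254), the other direction from day 7. That difference between settings was not tested. Angpt1 was lower at day 7, with 2.61 ± 0.166 FPKM in libraries labelled NFIA-Tg and 12.3 ± 0.980 in WT (limma, adjusted p = 1.01e-10), and higher in tissue, with 4.97 ± 1.37 in NFIA-Tg and 2.52 ± 0.214 in WT (limma, adjusted p = 0.0395).

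Lpl, the enzyme that Angptl4 inhibits, averaged 1597 ± 55.9 FPKM in day 7 libraries labelled NFIA-Tg and 1740 ± 128 in WT (limma, adjusted p = 0.135), a gene added here for its role. Of 16 tested genes of lipoprotein lipase handling and lipoprotein receptors, 5 were higher and 10 lower at day 7. Sel1l, needed for the maturation of the lipase, averaged 91.9 ± 3.10 FPKM in libraries labelled NFIA-Tg and 27.2 ± 0.404 in WT (limma, adjusted p = 8.10e-13). The sorting receptor Sort1 was lower, with 27.0 ± 0.730 FPKM in libraries labelled NFIA-Tg and 66.4 ± 0.641 in WT (limma, adjusted p = 1.38e-11), as was the proteoglycan Sdc1 (-1.46 ± 0.05 SE; limma, adjusted p = 2.55e-11).

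Of 16 tested genes of cholesterol efflux and liver X receptor response, to which Apoe and Apoc1 belong by regulation, 5 were higher and 8 lower at day 7. Npc1, which exports cholesterol from lysosomes, averaged 62.5 ± 4.42 FPKM in libraries labelled NFIA-Tg and 12.2 ± 0.410 in WT (limma, adjusted p = 2.82e-12). Cyp27a1, a mitochondrial sterol hydroxylase, averaged 19.5 ± 2.08 FPKM in libraries labelled NFIA-Tg and 2.39 ± 0.235 in WT (limma, adjusted p = 1.08e-09). Scarb1, the receptor for high-density lipoprotein, was lower, with 34.9 ± 2.28 FPKM in libraries labelled NFIA-Tg and 130.8 ± 2.87 in WT (limma, adjusted p = 8.69e-12).

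Of 15 PPAR-responsive lipid genes, a list that holds Angptl4, 7 were higher and 6 lower at day 7. The receptor Ppara averaged 27.3 ± 2.67 FPKM in libraries labelled NFIA-Tg and 2.27 ± 0.229 in WT (limma, adjusted p = 2.62e-12). Cpt1a, which admits fatty acids to mitochondria, was lower, with 6.07 ± 0.244 FPKM in libraries labelled NFIA-Tg and 25.6 ± 1.79 in WT (limma, adjusted p = 1.05e-11), as was the partner receptor Rxra (-1.31 ± 0.05 SE; limma, adjusted p = 5.47e-11).

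Of 18 antioxidant enzymes, set beside the paraoxonases, 5 were higher and 11 lower at day 7. Prdx6 averaged 180.0 ± 9.20 FPKM in libraries labelled NFIA-Tg and 65.6 ± 4.54 in WT (limma, adjusted p = 2.34e-10), and Gpx8, a peroxidase of the endoplasmic reticulum, averaged 7.43 ± 0.504 FPKM in libraries labelled NFIA-Tg and 50.0 ± 3.10 in WT (limma, adjusted p = 2.55e-12). Pla2g7, the lipoprotein-borne hydrolase of oxidised phospholipids, averaged 2.98 ± 0.571 FPKM in libraries labelled NFIA-Tg and 0.0764 ± 0.0602 in WT (limma, adjusted p = 1.24e-09). Of the receptors and partners of ANGPTL2 and APOD, 4 of 8 were tested at day 7, with 1 higher and 3 lower. Bsg, reported as a receptor for APOD, averaged 2687 ± 20.1 FPKM in libraries labelled NFIA-Tg and 431.5 ± 82.8 in WT (limma, adjusted p = 1.51e-10), while the ANGPTL2 integrin subunits Itga5 (-0.62 ± 0.04 SE; adjusted p = 4.14e-08) and Itgb1 (-0.38 ± 0.04 SE; adjusted p = 3.24e-06) were lower by limma.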

How the data were processed

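The 18 libraries were grouped from their labels. RNA was taken with Trizol and RNeasy columns, and polyadenylated RNA went into TruSeq Stranded mRNA libraries, per the labels' protocols. STAR 2.7.8a, StringTie 2.1.1 and build mm9 are named, per the submitters' processing notes, without their roles. The annotation and the strand counted are not stated there. Each deposited table gives an FPKM value and a length per gene, per the file headers. In the cultures the length is close to transcript length, the headers name STAR gene counts, and FPKM times length gave whole reads for 100% of values within 0.01 of a read. In tissue the length is close to the genomic span and no reads could be recovered, so depth and counting precision are unknown there. Tissue entries sharing a symbol (410 entries, 180 symbols) were summed.

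Differences were fitted in limma 3.58.1 under R 4.3.3 (eBayes with a trend) on log2(FPKM + 1), for genes with at least 1 FPKM in at least 3 fitted libraries. Two-sided p-values were adjusted by Benjamini-Hochberg over all genes tested, with calls at an adjusted p under 0.05. Tissue was fitted on 6 libraries and the cultures on 12 in 1 fit. The 9 genes, the 7 companion lists and the 12 marker lists were chosen with earlier results of these data known. Named besides the 9 were Nfia, the 3 genes of each companion list with the smallest adjusted p at day 7, and the 3 genes most correlated with Pon1, Angptl7 and Apoe with a mean of at least 5 FPKM in a group. Marker genes, overlapping genes, Lpl and the tissue companions were named outside this rule, after their values were seen. The fits were tested on simulated data. Alternatives were other pseudocounts, filters, scalings and spread models, recovered reads with voom, a replicate block, fits of 1 day alone and each replicate left out. Intervals for reads cover counting error only.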

Additional observations from a re-analysis of the deposited data

Results flagged for a closer look

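In 5 genes the course from day 0 to day 7 differed between libraries labelled NFIA-Tg and WT libraries by limma's test of the difference itself, over 12 libraries. Pon3 differed by 1.38 (adjusted p = 3.39e-09), with a rise in the libraries labelled NFIA-Tg and a fall in WT. Apod differed by -1.72 (adjusted p = 9.20e-05) and Angptl2 by -1.12 (adjusted p = 2.68e-08), both falling in both genotypes. Angptl4 differed by -1.40 (adjusted p = 2.56e-06), rising in both. Apoc1 differed by 1.08 (adjusted p = 6.78e-05), a sign that turned under other scales. In all 5, the day 7 libraries labelled NFIA-Tg held less Nfia than WT libraries.

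For 3 genes the differences in tissue and at a culture time had opposite signs, without overlap between groups in either, and these differences between settings were not tested. Pon2 had a difference of -0.13 in iWAT, which was not called and was -0.04 without WT replicate 2, against 0.12 at day 0 and 0.25 at day 7. Pon3 had 0.86 in iWAT and -0.27 at day 0, while its day 7 difference of 1.11 had the sign of tissue. Angptl2 had -1.02 in iWAT and 0.26 at day 0, while its day 7 difference of -0.85 had the sign of tissue.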

How the results depend on the processing

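Of 418 alternative values for the 25 tested results of single genes, 412 kept their direction and their side of the threshold. The exceptions were the genotype by differentiation contrasts of Apoc1 and Pon2. For Apoc1 the main 1.08 reversed to -0.55 with a pseudocount of 0.1 and to -1.002 with voom on recovered reads, and it was 0.28 (limma, adjusted p = 0.257) on TPM; WT day 0 levels of this gene rest on 5 reads, and the cause was not tested. For Pon2 it passed with median-of-ratios scaling (0.21, adjusted p = 0.00492) and without WT day 0 replicate 2 (adjusted p = 0.0409) or WT day 7 replicate 3 (adjusted p = 0.0368). Among values given without a test, a pseudocount of 0.1 moved the tissue differences of Pon1 (5.59) to 7.18 and of Angptl7 (4.19) to 6.31, and the day 0 differences of Apoe (3.48) to 4.02 and of Apoc1 (1.03) to 2.68. In tissue 1413 genes were called, 934 with no filter (17295 genes tested), and 617 to 1262 with 1 library left out, the fewest without WT replicate 3; the count was 638 and 745 without NFIA-Tg replicates 2 and 3 and 814 without WT replicate 2. Scaling moved splits of calls by over 10 points, to 589 higher and 845 lower in tissue with median-of-ratios scaling (739 and 674 as deposited), and with TPM to 4646 and 6308 for differentiation in libraries labelled NFIA-Tg (5741 and 5209) and 4632 and 5492 in WT (5796 and 4450). The median of all genes shifted by 0.11 at day 7 with median-of-ratios scaling, and by -0.231 and -0.156 with TPM for differentiation in libraries labelled NFIA-Tg and in WT. Whether replicate numbers pair libraries is not settled, since 3 libraries per group are too few for such correlations to decide it. Same-numbered correlations were 0.110, 0.115 and 0.007 in tissue, where different-numbered ones ran from -0.159 to 0.085. At day 7 the same-numbered ones were 0.085, -0.029 and -0.059. No comparison had all same-numbered correlations over 0.1. A replicate block called 1282 genes in tissue, 10136 at day 7, 7822 at day 0, 10927 and 10239 for differentiation in libraries labelled NFIA-Tg and WT, and 9027 for the contrast of both. Depth limits Pon1, Angptl7 and day 0 Apoc1 in the cultures.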

Other observations

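In tissue, antioxidant and lipid transfer genes set beside the 9 moved in both directions, and the genes here were named after their values were seen. Over all genes tested in tissue, 5.96% were called higher and 5.44% lower. Prdx6, a peroxiredoxin with phospholipase activity, averaged 1085 ± 160 FPKM in NFIA-Tg iWAT and 118 ± 9.17 in WT iWAT (SD, n = 3 each; difference 3.19 ± 0.14 SE; limma, adjusted p = 4.39e-05). The cytosolic dismutase Sod1 was higher, with 894 ± 16.5 FPKM in NFIA-Tg and 565 ± 38.9 in WT (limma, adjusted p = 0.0102), and the secreted Sod3 was lower, with 321 ± 51.5 FPKM in NFIA-Tg and 692 ± 43.7 in WT (limma, adjusted p = 0.00344). In all, 3 of 18 antioxidant genes were higher and 3 lower in tissue. Of 17 efflux and liver X receptor genes, 2 were higher and 3 lower, among them Pltp, the phospholipid transfer protein, with 237 ± 15.8 FPKM in NFIA-Tg and 476 ± 44.0 in WT iWAT (limma, adjusted p = 0.00237). At day 7 Pltp stood the other way, with 69.9 ± 1.59 FPKM in libraries labelled NFIA-Tg and 28.5 ± 0.781 in WT (limma, adjusted p = 3.93e-09). Whether tissue and day 7 differ was not tested.

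Of 16 lipase and lipoprotein receptor genes tested in tissue, 2 were higher and 1 lower, where 5.96% and 5.44% of all genes were. Gpihbp1, which anchors lipoprotein lipase on capillaries, was the lower one, with 280.3 ± 18.9 FPKM in NFIA-Tg and 418 ± 11.5 in WT iWAT (limma, adjusted p = 0.0126). Beside it, 5 of 10 endothelial markers were lower and 0 higher in NFIA-Tg iWAT, with sums of 459 to 564 FPKM in NFIA-Tg and 706 to 786 in WT, and the part of these cells was not tested. Of 15 PPAR-responsive genes 3 were higher, Ppara, Ucp3 and Acadl, and Hilpda was lower, with 9.64 ± 1.64 FPKM in NFIA-Tg and 39.3 ± 16.9 in WT iWAT (limma, adjusted p = 0.00440), while Angptl4 of the same list overlapped. Of 11 genes tested from the list of other apolipoproteins, only Apoo was called, higher, with 20.5 ± 3.26 FPKM in NFIA-Tg and 11.5 ± 1.33 in WT iWAT (limma, adjusted p = 0.0126). None of 6 tested receptors and partners of ANGPTL2 and APOD was called by limma in tissue, and 2 had an unadjusted p under 0.05.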
